A study of Mus musculus with 2 samples.

Results

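The Notch receptors (Notch1 to Notch4), their ligands (Dll1, Dll3, Dll4, Jag1 and Jag2) and the nuclear partner Rbpj were examined in an ATAC-Seq peak list from mouse cardiac progenitor cells (CPCs). ATAC-Seq uses the Tn5 transposase to cut accessible DNA, and a peak is a stretch of the genome where such cuts pile up. The 10 genes were chosen by name for their place at the core of the pathway. Their peaks are the distinct intervals whose symbol in the list is one of these names, and there were 22 of them among 26232 distinct peaks. A peak of Notch1 stood on 2 lines of the list and was counted once. Coordinates are those of the mm9 build, and each peak has the limits it had in the replicate that gave the list its coordinates.

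The CPCs were derived from E14 Tg(Nkx2-5-EmGFP) embryonic stem cells, which carry a fluorescent reporter for the heart factor Nkx2-5, and were taken at day 5 of cardiac differentiation. The study describes both directed and hanging drop differentiation. Its ATAC-Seq methods do not name the one used, nor a sort of the cells by the reporter. The labels give the strain as C57BL/6 and name no treatment or knockdown for either sample, and Isl1 knockdown cells, which the series mentions, were not analysed here. The 2 samples, which come from 2 independent differentiations, form 1 group and share 1 peak list without a score or a value for either sample. Every value below therefore stands for regions called in both replicates, with no replicate error, no comparison between conditions and an unknown read depth. Among genes that mark the labelled cells, the list assigned 8 peaks to Isl1, 3 to Nkx2-5 and 5 to Tbx5, each with 1 peak within 1 kb of a transcription start site (TSS). Mef2c had 4 with 1 within 1 kb of a TSS, and Gata4 had 3, none of them within 1 kb. Hand2, which is also a heart regulator, and the pluripotency gene Pou5f1 had none. These counts go by the symbol in the list, and peaks at these genes named for a neighbour were not searched for.

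Notch signalling passes between touching cells. A ligand of the Delta-like or Jagged type on one cell binds a Notch receptor on its neighbour, the receptor is cut by ADAM proteases and then by gamma-secretase, and the freed intracellular domain enters the nucleus. There it joins the DNA-binding protein Rbpj and Mastermind-like coactivators and turns on targets of the Hes and Hey families. In the developing heart the pathway is best known for its roles in the endocardium, the valves, trabeculation and the outflow tract, where Jag1 is a major ligand.

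All 10 genes had a peak, and all 10 had a peak whose midpoint lay within 1 kb of a TSS, here called a promoter peak. Over the 21900 protein coding genes of the reference table, 62.5% had at least 1 peak and 50.0% had a promoter peak. The genes were chosen with such results known, and no test of them against other genes was made. Each promoter peak also spanned the TSS from which its distance had been measured. The other 12 peaks lay farther away, so the share of promoter peaks was 45.5% (95% Wilson confidence interval 26.9 to 65.3%), beside 44.9% over all peaks. This interval treats the peaks as independent, although several belong to the same gene and each gene had 1 promoter peak.

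The genes differed in how many peaks they carried. Jag1 had 6, Notch2 had 4, Notch3 had 3, Notch1 and Notch4 had 2 each, and Dll1, Dll3, Dll4, Jag2 and Rbpj had 1 each. The 5 genes with 2 or more peaks were thus the 4 receptors and Jag1, and 24.4% of all protein coding genes had that many. A count of 6 or more, which among these genes was seen at Jag1, was reached by 1.23% of protein coding genes. The mean was 2.20 peaks per gene, against 1.71 over protein coding genes with a peak.

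These counts per gene depended on how peaks were assigned. When each peak went to the nearest protein coding TSS of the GENCODE annotation, Notch1 had 5 peaks, Notch3 had 4, Dll1 had 4 and Dll4 had 2, Jag1 had 6, and 7 genes had 2 or more. When all peaks in the gene body or within 10 kb of it were counted, whatever their symbol, Notch1 had the most with 6 and Jag1 had 2. Notch4 then had 4 peaks, Dll3 had 3, and Dll4 and Jag2 had 2 each, so that 8 genes had 2 or more. The share of 24.4% over all protein coding genes holds for the deposited assignment. It was not computed for the other assignments, so the counts of 7 and 8 genes have no background. Rbpj had 1 peak under each of these assignments. The order of the genes by number of peaks is therefore that of the deposited assignment, on which the values below rest.

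**Figure D1:**
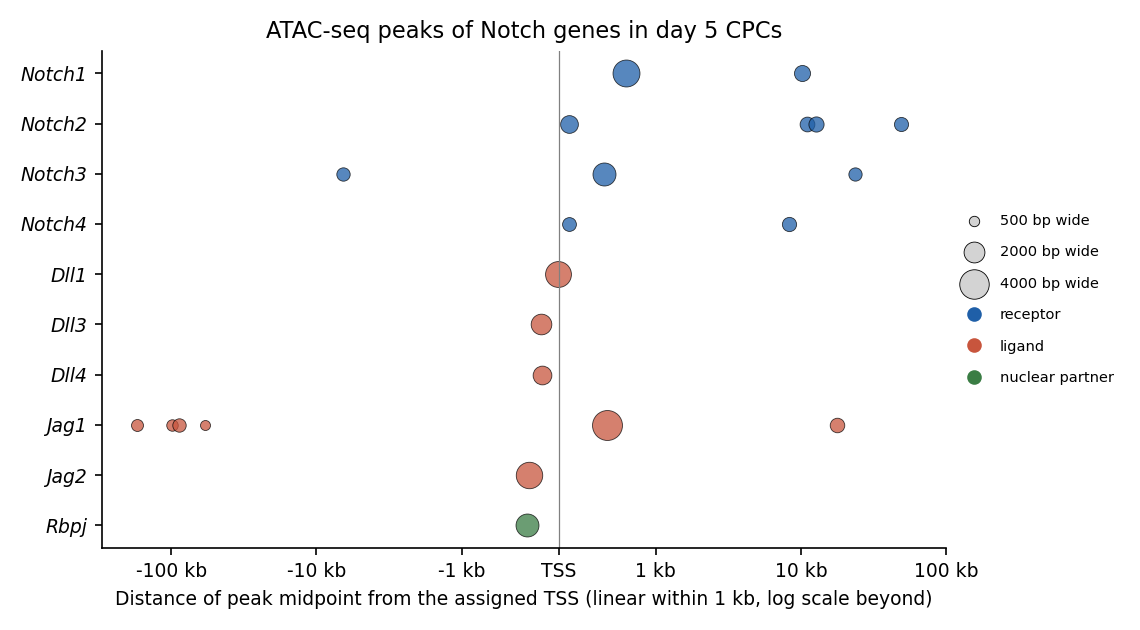
Each circle is 1 of the 22 peaks, placed by the distance of its midpoint from the assigned TSS (x axis, linear within 1 kb and logarithmic beyond) and by gene (y axis), with an area proportional to its width. Every gene has a circle within 1 kb of the TSS, while circles farther away are seen at the 4 receptors and at Jag1, whose 4 upstream peaks lie 58833 to 171983 bp away.

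Notch1 encodes a receptor needed for endocardial and vascular development. Its promoter peak spanned 3351 bp on chromosome 2 (26356972 to 26360322) and reached 979 bp upstream and 2371 bp downstream of the TSS. Of the 11772 promoter peaks in the list, 0.943% were wider. The second peak, of 1190 bp, lay in an intron 10159 bp downstream (26348589 to 26349778). It was the widest of the 12 peaks beyond 1 kb.

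The annotation gives Notch1 a further 3 coding start sites upstream of the one with the peak. None was covered, and the nearest peaks were 4855 to 8574 bp away. Within the gene, the peak list also held 3 intervals that it assigned to Mir6996, a microRNA gene. They measured 1030, 850 and 1047 bp and lay in the untranslated end of the gene, in a coding exon and in an intron. By position, the body of Notch1 therefore held 5 peaks, of which 2 carried its name.

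Notch2, a receptor gene that like Jag1 is mutated in Alagille syndrome, had a promoter peak of 1454 bp on chromosome 3 (97816843 to 97818296), which was wider than the median promoter peak of 1326 bp. Its other 3 peaks were all intronic. Those at 10965 and 12636 bp downstream, of 1006 and 1066 bp, were separated by a gap of 635 bp. The last, of 921 bp, lay 48563 bp into the gene. No peak with another symbol was found within 50 kb of Notch2.

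Notch3, the receptor of vascular smooth muscle, had a promoter peak of 2442 bp on chromosome 17 (32302104 to 32304545), with 5.06% of promoter peaks wider. A peak of 825 bp lay 6571 bp upstream of the TSS in intergenic sequence. Another of 814 bp lay 23441 bp downstream in a coding exon. This exonic peak had a GC content of 60.7%, the highest among the member peaks beyond 1 kb.

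Notch4 is a receptor expressed mainly in endothelium. Its promoter peak was the narrowest of the 10, at 884 bp on chromosome 17 (34700901 to 34701784), and 90.3% of promoter peaks in the list were wider. The other peak assigned to the gene, of 938 bp, lay in a coding exon 8273 bp downstream. A peak of 2055 bp near the end of the gene (34723049 to 34725103) was assigned to Gpsm3, so the widest peak in the body of Notch4 carried the name of its neighbour.

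Among the ligands, Jag1 had both the widest promoter peak and the most distant peaks. The promoter peak spanned 4135 bp on chromosome 2 (136939694 to 136943828), from 1571 bp upstream to 2563 bp downstream of the TSS. It ranked 35 by width among the 11772 promoter peaks, with 0.289% wider. An intronic peak of 976 bp lay 17865 bp downstream. The 4 upstream peaks measured 463, 832, 610 and 661 bp and lay 58833, 88131, 99360 and 171983 bp from the TSS. All 4 were narrower than most peaks beyond 10 kb, of which 98.7, 57.3, 88.3 and 82.4% were wider.

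The first 3 upstream peaks of Jag1 were intergenic, and the last lay in an exon of the noncoding gene Gm14055. The next coding TSS upstream, that of Btbd3, was 1140.0 kb away, and on the other side the next was 224 kb away. No peak with another symbol was found within 50 kb of the gene. All 4 upstream peaks were assigned to Jag1 as the gene with the nearest TSS, and the list holds no measurement of which gene they act on.

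In the deposited assignment the Delta-like ligands had their promoter peak alone, while by nearest GENCODE coding TSS Dll1 had 4 peaks and Dll4 had 2. At Dll1, a ligand of somite and neural progenitors, this peak spanned 3085 bp on chromosome 17 (15511255 to 15514339), almost evenly split into 1551 bp upstream and 1533 bp downstream. It was wider than all but 1.38% of promoter peaks. At Dll3, a divergent ligand that acts in somites, it measured 1968 bp on chromosome 7 (29086000 to 29087967). At Dll4, the ligand of arterial endothelium, it measured 1619 bp on chromosome 2 (119150543 to 119152161). Dll1 was thus the widest of these 3, and Dll4 the narrowest.

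Jag2, which like Jag1 belongs to the Jagged type, had in the deposited assignment a promoter peak and no other. It covered 3226 bp on chromosome 12 (114166399 to 114169624), from 1918 bp upstream to 1307 bp downstream, and ranked 135 by width among promoter peaks. The list therefore gave promoter peaks of 4135 bp at Jag1 and 3226 bp at Jag2, with 6 peaks at Jag1 and 1 at Jag2. The coding TSSs of the neighbours on either side lay 1364.4 kb apart at Jag1 and 48.6 kb apart at Jag2. Counted in the gene body or within 10 kb of it, whatever their symbol, Jag1 and Jag2 had 2 peaks each.

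Rbpj encodes the DNA-binding protein on which all 4 receptors converge. Its single peak spanned 2431 bp on chromosome 5 (53980045 to 53982475), 1541 bp of it upstream of the TSS, and 5.24% of promoter peaks were wider. It covered 2 of the 3 annotated coding start sites of the gene. The start site farthest upstream, at position 53947018, was 33027 bp from the nearest peak. The nearest other peak was 80079 bp away and assigned to Cckar.

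In width, the promoter peaks stood toward the upper end of the list. Their median was 2437 bp, with a range of 884 to 4135 bp, against a median of 1326 bp and quartiles of 1072 and 1691 bp over all promoter peaks. At 9 of 10 genes the peak was wider than that median, at 7 it was wider than the upper quartile, and at 6 it was among the widest 10% of promoter peaks. The exceptions to the second count were Notch2 and Dll4, which lay between the median and the upper quartile, and Notch4. The list gives no read depth or peak score, so the widths could not be set against either.

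**Figure D2:**
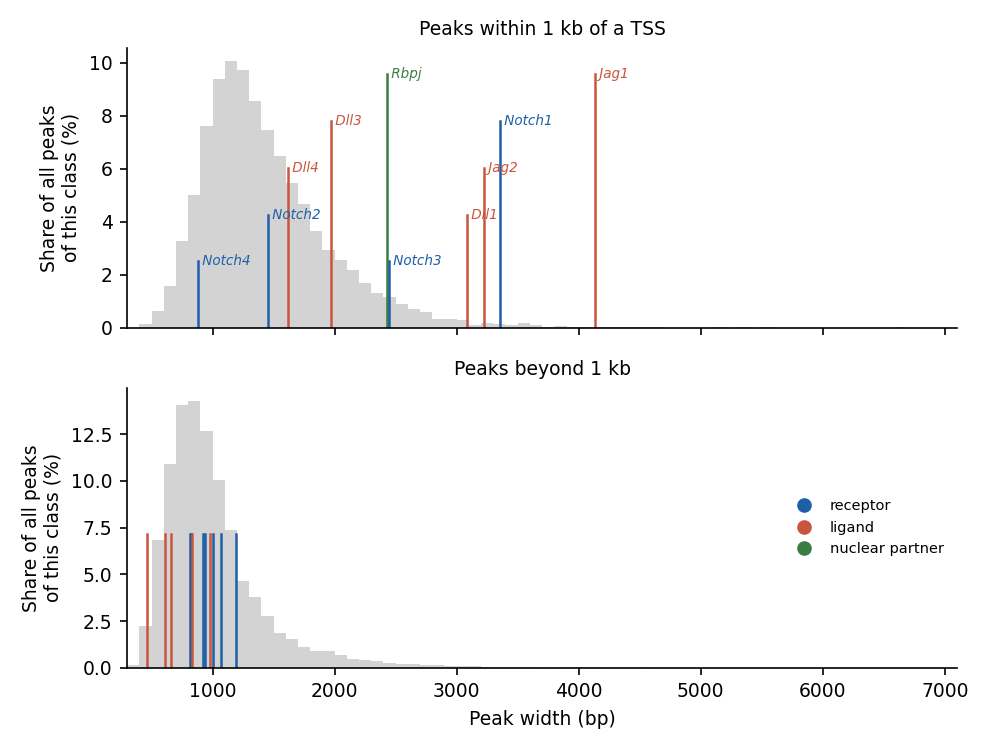
Grey bars give the share of all peaks (y axis, percent) in bins of peak width (x axis, bp), above for the 11772 promoter peaks and below for peaks beyond 1 kb, and coloured lines mark the member peaks, whose height has no meaning. In the upper panel 9 of 10 lines lie to the right of the median of 1326 bp, while in the lower panel the 12 lines lie between 463 and 1190 bp.

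The 12 peaks beyond 1 kb did not share this width. Their median was 877 bp (range 463 to 1190 bp), against 911 bp and quartiles of 735 and 1146 bp over all peaks beyond 1 kb. Of the 12, 6 were narrower than that median, and 1, the Notch1 intronic peak, was wider than the upper quartile. By position, 7 lay downstream of the TSS within their own gene, 5 of them in introns and 2 in coding exons. The 5 upstream peaks were 1 at Notch3 and 4 at Jag1. At these 10 genes the promoter peaks held 70.5% of the summed peak length.

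The promoter peaks also differed in how they sat on the TSS. The midpoint was downstream at Notch1, Notch2, Notch3, Notch4 and Jag1, and upstream at the other 5 genes. All 4 receptors were thus on the downstream side, as were 64.3% of all promoter peaks. For Dll1 the midpoint was 9 bp upstream of the TSS in the list but 143 bp downstream of the coding TSS in GENCODE, so its side depends on the gene model. Of the 22 distances, 9 matched an annotated GENCODE TSS within 1 bp (those of Notch1, Notch2, Dll3, Dll4 and Jag2). The other 13 were measured from start sites that this annotation does not hold.

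**Figure D3:**
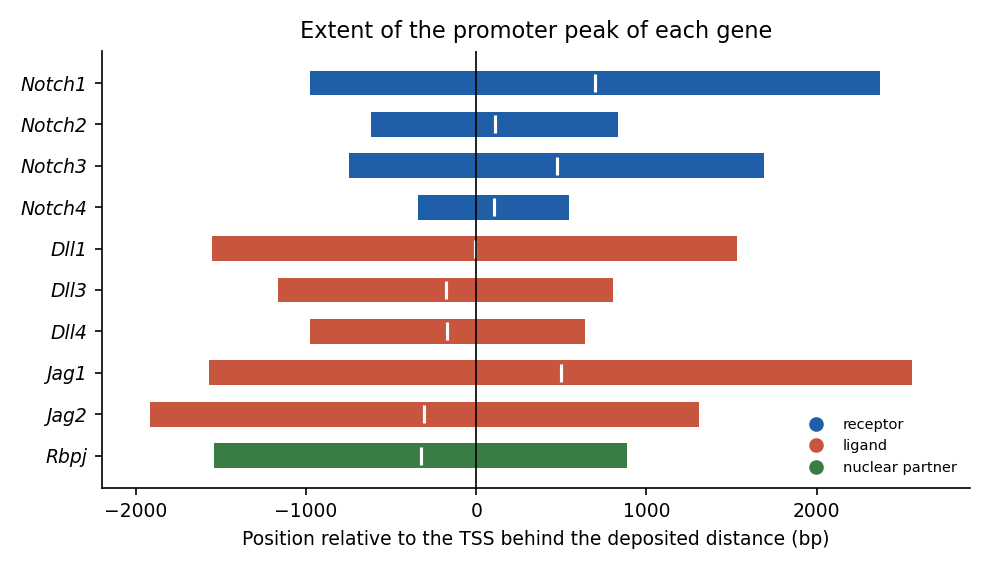
Bars show how far each promoter peak extends (x axis, bp, negative upstream) around the TSS behind its deposited distance (black line), with 1 gene per row, and white ticks mark the midpoints. The bars range from 884 bp at Notch4 to 4135 bp at Jag1, and the ticks of all 4 receptors are to the right of the TSS.

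Base composition set Notch4 apart from the other promoters. CpG sites, where a C is followed by a G, are depleted from most of the genome but retained in the CpG islands that many promoters share, and their density is given as the ratio of observed to expected sites. In the Notch4 promoter peak this ratio was 0.136, and 0.484% of promoter peaks were at or below it, although the GC content of 57.8% was close to the promoter median of 58.6%. The remaining 9 ratios ran from 0.474 at Dll3 to 0.912 at Rbpj, around a median of 0.685 over all promoter peaks. Rbpj, with a GC content of 67.8%, and Jag2, with 66.4%, were the richest in GC. Of all promoter peaks, 3.48% had a higher GC content than that of Rbpj.

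The contrast can be read in the 200 bases just upstream of the start of transcription, shown for the promoters with the widest peak, the highest CpG ratio and the narrowest peak. Each is on the strand of its gene, 5′ to 3′, in mm9, ends 1 base before the annotated coding TSS farthest upstream within the peak, and has every CpG in capitals.
Jag1, chr2:136942381-136942580, minus strand: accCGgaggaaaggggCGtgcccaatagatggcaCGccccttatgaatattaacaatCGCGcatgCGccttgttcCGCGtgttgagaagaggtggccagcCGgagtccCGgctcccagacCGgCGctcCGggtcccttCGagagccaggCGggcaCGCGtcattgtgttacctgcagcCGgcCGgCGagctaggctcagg
Rbpj, chr5:53981254-53981453, plus strand: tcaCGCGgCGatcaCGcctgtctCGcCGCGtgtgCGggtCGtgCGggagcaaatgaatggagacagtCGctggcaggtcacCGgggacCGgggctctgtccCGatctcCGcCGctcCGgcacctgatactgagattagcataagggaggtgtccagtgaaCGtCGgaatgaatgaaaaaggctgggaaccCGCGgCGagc
Notch4, chr17:34701013-34701212, plus strand: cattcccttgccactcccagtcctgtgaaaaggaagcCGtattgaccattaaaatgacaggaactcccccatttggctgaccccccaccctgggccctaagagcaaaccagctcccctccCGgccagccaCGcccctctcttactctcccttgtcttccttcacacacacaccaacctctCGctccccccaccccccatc
Jag1 had 20 CpG sites in this stretch, Rbpj had 22 and Notch4 had 4, at GC contents of 64.5, 63.0 and 59.0%.

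**Figure D4:**
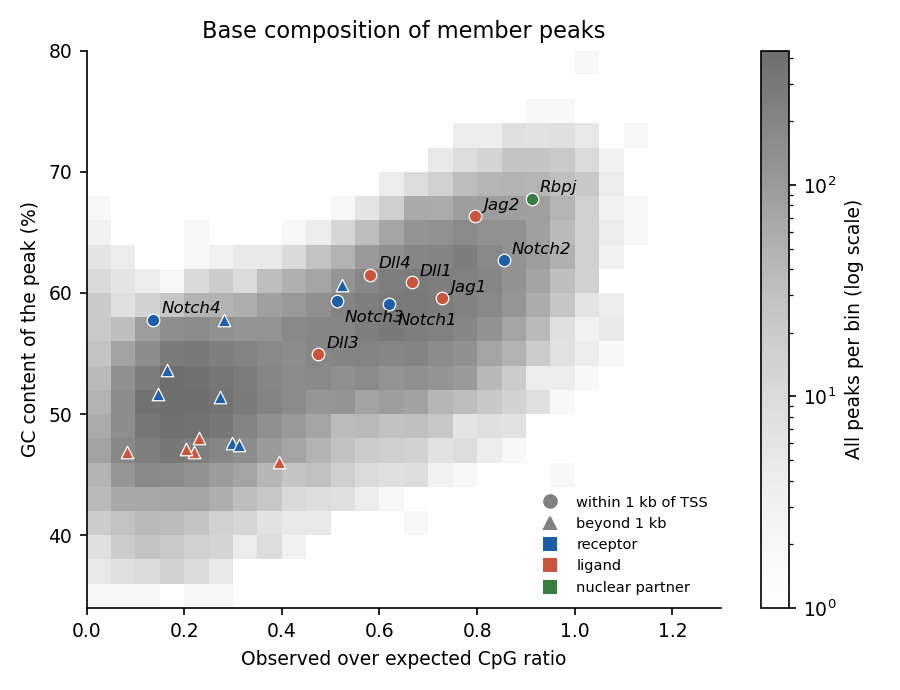
The GC content of each peak (y axis, percent) is plotted against its observed over expected CpG ratio (x axis), with member peaks as circles within 1 kb of a TSS and triangles beyond, over the density of all 26232 peaks in grey (log scale). Notch4 is the circle at a ratio of 0.136, left of the other promoters at 0.474 to 0.912.

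The member peaks beyond 1 kb had CpG ratios of 0.0830 to 0.523, with a median of 0.252, beside 0.242 over all peaks beyond 1 kb. Their GC content had a median of 47.8%, against 51.4%. The 5 distal peaks of Jag1 lay between 46.0 and 48.0%. Those of Notch1, Notch3 and Notch4 were richer in GC, at 51.6 to 60.7%, and those of Notch2 ran from 47.4 to 51.4%.

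To see which short motifs lay at the centres of these peaks, the 300 bases around each midpoint were searched on both strands for 5 sequences. The core bound by Rbpj was written as GTGGGAA. For GATA factors the letters AGATAA were used. LIM-homeodomain factors such as Isl1 were represented by CTAATG. The E-box, bound by Hey factors among others, was CACGTG. For T-box factors the search used GGTGTGA. None of the 5 contains another. A match is a run of letters and not a measured binding site. Among the 22 windows 9 held at least 1 of them and 13 held none. The share of all windows with at least 1 was not computed, so this count cannot be judged against other peaks.

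The Rbpj core was found in 3 of 22 windows, against 6.48% of windows over all peaks. They belonged to the promoter peaks of Notch3 and Dll1 and to the Jag1 peak 58833 bp upstream. The GATA letters were in 4 of 22 windows, against 9.49%. These were the Notch2 peak 48563 bp downstream, the promoter peak of Jag1 and its peaks 58833 and 171983 bp upstream. The LIM letters were in 1 window, at the promoter of Rbpj, against 6.54%. The T-box letters were in 2 windows, those of the Notch3 peaks 6571 bp upstream and 23441 bp downstream, against 4.69%. The E-box was in none, against 6.15%. These are counts of 0 to 4 among 22 windows, and no test was made of them.

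The Jag1 peak 58833 bp upstream was the only member window that held both the Rbpj core and the GATA letters. It was also the narrowest member peak. The stretches around the Rbpj cores are given on the plus strand of mm9, with the motif letters in capitals, so that TTCCCAC and TTATCT are matches on the minus strand. The Dll1 stretch is short because it lies in an untranslated exon.
Jag1 58833 bp upstream, chr2:137000996-137001158: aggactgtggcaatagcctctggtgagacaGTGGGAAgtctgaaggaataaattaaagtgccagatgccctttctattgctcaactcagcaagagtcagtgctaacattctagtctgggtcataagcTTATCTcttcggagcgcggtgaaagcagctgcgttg
Notch3 promoter peak, chr17:32303311-32303377: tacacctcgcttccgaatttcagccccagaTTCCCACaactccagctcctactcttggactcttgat
Dll1 promoter peak, chr17:15512659-15512685: gaggggcgcgGTGGGAAcggtggtggc
In the Jag1 peak the Rbpj core stood at -61 bases and the GATA letters at 36 bases from the midpoint, counted along the plus strand.

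The GATA letters in the other 3 windows and the LIM letters at Rbpj are shown in the same way, with the Rbpj stretch in an intron of the transcript that starts farthest upstream and before the other start sites.
Notch2 48563 bp downstream, chr3:97865982-97866047: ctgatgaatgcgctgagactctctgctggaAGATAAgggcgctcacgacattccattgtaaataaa
Jag1 171983 bp upstream, chr2:137114167-137114232: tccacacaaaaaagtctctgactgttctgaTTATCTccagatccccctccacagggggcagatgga
Jag1 promoter peak, chr2:136941680-136941745: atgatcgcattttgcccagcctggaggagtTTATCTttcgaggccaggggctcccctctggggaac
Rbpj promoter peak, chr5:53981184-53981249: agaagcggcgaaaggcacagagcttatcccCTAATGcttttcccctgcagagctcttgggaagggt
Relative to the midpoint, the GATA letters stood at -10 bases in the Notch2 peak and at -48 bases in the promoter peak of Jag1.

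Widening the search from 300 bases to whole peaks raised the Rbpj core from 3 to 10 of 22 member peaks, while 24.8% of all peaks then held it. These 10 included the promoter peaks of Notch1, Notch3, Notch4, Dll1, Jag1 and Rbpj. Of the 10 promoter peaks 6 held the core, against 26.8% of all promoter peaks, whose median width is lower. Wider peaks offer more letters, but no share among peaks of like width was computed, so the part of width was not tested. In the Notch2 peak 48563 bp downstream the core occurred at 2 places, of which 1 shared a base with a CTAATG match.

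The rest of the pathway was read through 50 genes grouped by role, 44 of which (88.0%) had a peak and 37 (74.0%) a promoter peak. Over all protein coding genes these shares were 62.5 and 50.0%. The 50 genes had 98 peaks in all, with a median of 1 per gene as over all protein coding genes and a mean of 1.96 against 1.07. Of the 50, 22 (44%) had 2 or more, against 24.4%. The list was chosen with results known, and no test of these differences was made.

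All 5 coactivators had a peak. Maml3, a Mastermind-like protein that bridges Rbpj to the transcription machinery, had 9, the most of any gene in the pathway, yet none within 1 kb of its TSS. Of 9 corepressors that act with Rbpj, 8 had a peak, and each of these had a promoter peak. Cir1 had none. Ctbp2, which encodes a corepressor, had the widest peak of the 50 genes, at 3597 bp.

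The genes of the groups that modify or cut the receptor had a median of 1 peak in both groups, the same as over all protein coding genes. In the proteolysis group 8 of 9 genes had a promoter peak, and Psen2, a catalytic subunit of gamma-secretase, had 3 peaks. Psenen, which encodes another subunit, had none. Of the 5 glycosylation genes 4 had 1 peak each, and at Lfng and Poglut1 it was a promoter peak. Mfng and Rfng had theirs 23291 and 7971 bp from the TSS, and Pofut1 had none.

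For ligand endocytosis all 4 genes had a peak, and Neurl1a and Neurl1b had 3 each. Of 9 genes for receptor trafficking and turnover 8 had a peak, led by Fbxw7, a ubiquitin ligase subunit that marks the Notch intracellular domain for destruction, with 5. Dtx1 had none. Among 6 transcriptional targets 5 had a peak and 3 a promoter peak. At Hes1, a principal Notch target, a peak of 3074 bp covered the coding TSS, but its midpoint lay 1004 bp upstream, just outside the 1 kb limit. It is named here because of that value. Hey1 had 5 peaks, of which 4 lay 18202 to 100282 bp upstream. Hes7, a gene of the segmentation clock, had none. In the group of noncanonical ligands Dlk1 had 5 peaks, all upstream, Dlk2 had 1 and Dner had none.

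A gene without an assigned peak was not always without a peak at its start. Of the 6 pathway genes without one, 4 had an annotated coding TSS inside a peak named for a neighbour. These were Cir1 (a peak of Scrn3), Pofut1 (Plagl2), Psenen (U2af1l4) and Dner (Mir5126). For Dtx1 and Hes7 the nearest peaks were 30560 and 12871 bp from the TSS. By position, 42 of the 50 genes had a coding TSS inside a peak. The share of all protein coding genes by this rule was not computed, and the shares given above rest on the deposited symbols.

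**Figure D5:**
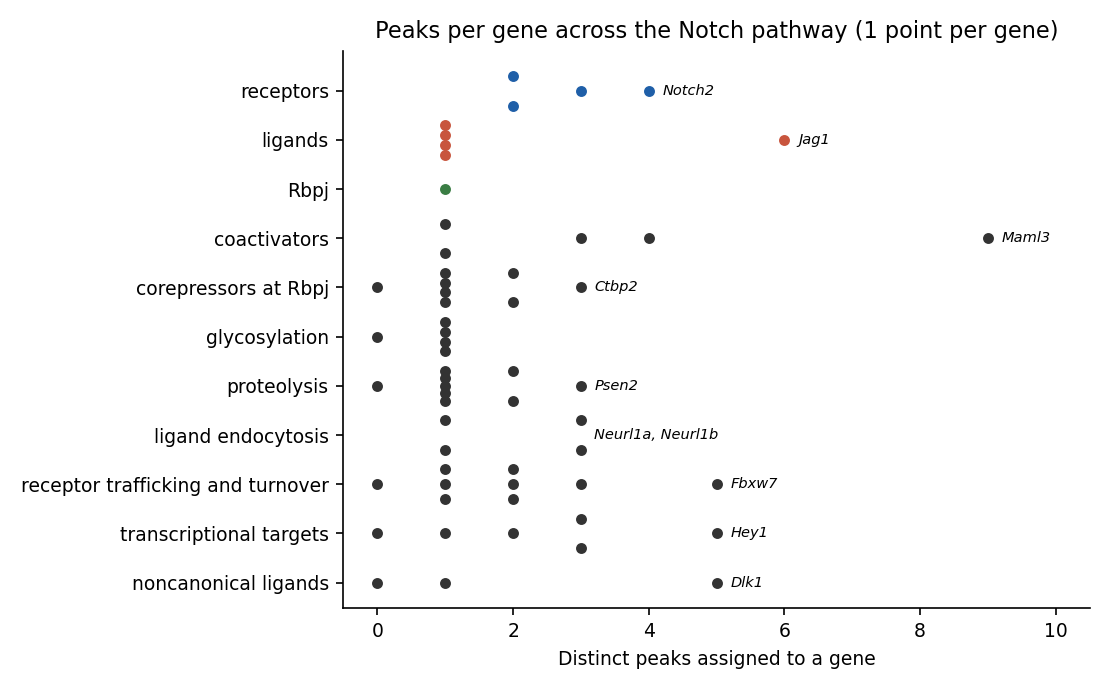
Each point is 1 gene, placed by the number of distinct peaks assigned to it (x axis) and by its role in the pathway (y axis), with coloured points for the receptors, ligands and Rbpj and black points for the other pathway genes, of which 1 is left out. Named genes have the most peaks among those plotted in their group, from 9 at Maml3 to 3 at Psen2, and the 6 points at 0 are genes to which no peak was assigned.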

How the data were processed

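ATAC-Seq had been performed on 2 samples of day 5 CPCs. Per the labels and the study's methods, the authors aligned paired reads to mm9 with Bowtie2, filtered them with SAMtools, removed duplicates with Picard 1.136, called peaks in each sample with MACS (fixed shift, model off), removed blacklisted regions and kept peaks of one replicate that overlapped the other with bedtools 2.15. No shift for the Tn5 cut is described. The assignment to the nearest TSS is described for ChIP-Seq peaks and was taken to hold here. The deposited list has no peak score and gives for each interval a symbol, an accession and the signed distance (bp) of its midpoint from a TSS. It holds no counts, so depth and replicate error are unknown and Wilson intervals cover counting error only.

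Intervals were made distinct (26429 lines gave 26232 peaks), read 1-based, and placed on the mm9 genome and GENCODE vM1 with pysam 0.24.0 and pandas 2.3.3 under Python 3.11.15. GC content and CpG ratios cover whole peaks, and motifs the 300 bases around each midpoint. RefSeq gene names of another build supplied the 21900 protein coding genes, by name only. Counting was tested on simulated intervals. The named genes were all 10 members, the pathway genes by role with the most peaks, and those without a peak, except 1 pathway gene that is not reported here. The members and lists were chosen with earlier results of these data known. Alternatives covered repeated lines, width minimums, merging, assignment by GENCODE TSS or gene body, promoter distance and motif search.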

Additional observations from a re-analysis of the deposited data

How the results depend on the processing

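Of 33 alternatives over 8 results, 28 left the value within 1.5 times the reported count or within its interval. Keeping only peaks wider than the median of all peaks left 10 of the 22 member peaks, with 90.0% of them within 1 kb of a TSS and a median width of 2436.5 bp, and left 9 member genes with a peak, Notch4 being the gene that lost its peaks. Under this setting the median distance of member peaks fell from 7422 to 315.5 bp. That shift counted as unchanged only because the interval of the median was wide, from 305 to 23441 bp. The Rbpj core was found in 10 member peaks when the whole peak was searched and in 8 windows with the shorter letters TGGGAA, which GTGGGAA contains, against 3 windows as reported. Over all peaks the shares were 24.8% for the whole peak, 23.6% for the shorter letters and 6.48% as reported. Assignment to the nearest GENCODE coding TSS gave 30 member peaks and assignment by gene body and 10 kb around it gave 29. These assignments moved the counts of single genes by more than the totals, with 7 and 8 genes having 2 or more peaks against 5. No share over all genes was computed for these assignments. Among the remaining settings the member peaks numbered 21 to 23. With a limit of 2.5 kb, an alternative chosen after seeing the data, 39 pathway genes had a promoter peak against 37. The start sites behind the distances and the genomic context were not varied. No paired analysis was possible because the replicates share 1 peak list, and for the same reason no replicate could be left out. Without read depth, regions just below the peak threshold cannot be told from closed ones.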
